A study of Mus musculus with 6 samples.

Results

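The skeletal muscle genes described here are 34 genes of the contractile apparatus of striated muscle and of the fibre around it, taken by gene symbol from a list of names. All 34 were among the 24346 symbols that each library lists. They were read in 6 RNA-seq libraries of cartilage from the mouse spheno-occipital synchondrosis, a growth cartilage of the cranial base. The tissue was cut from frozen sections by laser, in layers of flat and of round chondrocytes, and the series was made to compare these layers. The libraries carry the title codes FP (numbers 11, 14 and 16) and RR (the same numbers), which no label spells out, so the codes are kept. All 6 libraries share 1 genotype and 1 treatment: mice with Gli1CreERT2, a Cre recombinase that tamoxifen switches on in cells expressing the hedgehog target Gli1, and a floxed Tomato reporter, given tamoxifen at postnatal day 3. No library comes from mice without these alleles or without tamoxifen, and the sources used here do not state the age at collection or the number of mice. Values of a group are given below in the order 11, 14, 16.

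A striated muscle fibre shortens when thick filaments of myosin pull on thin filaments of actin inside repeating units, the sarcomeres, which are bounded by Z-discs. Calcium released from the sarcoplasmic reticulum binds troponin C, and the troponin complex then moves tropomyosin away from the sites where myosin binds actin. Fast and slow fibres use different gene copies of myosin heavy chain, troponin and other parts, and developing fibres also use embryonic and neonatal myosins. Chondrocytes build no sarcomeres, and muscles attach to the outside of the cranial base. The level of sarcomere genes in a cartilage capture is thus one way to look for muscle cut along with it.

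Promoter sequences of 3 members are shown because they carry, in letters, the sites by which muscle genes are known to be switched on. They are the members with the highest levels among those lowest in both RR 14 and RR 16, the pattern described below, for which RefSeq (GRCm38.p6) gave a single start and whose window met no exon of GENCODE M21. Each sequence is the 250 bases before the RefSeq start, 5′ to 3′ on the gene's strand. Capitals mark CAGCTG, an E-box bound by MyoD and myogenin, the CArG box bound by serum response factor, and the MEF2 site.
Acta1 (chr8:123894776-123895025, minus strand): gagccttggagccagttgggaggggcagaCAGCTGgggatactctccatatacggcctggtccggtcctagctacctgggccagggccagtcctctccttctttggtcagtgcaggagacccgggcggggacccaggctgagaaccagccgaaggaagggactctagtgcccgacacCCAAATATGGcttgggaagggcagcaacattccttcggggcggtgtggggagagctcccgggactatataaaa
Mylpf (chr7:127211358-127211607, plus strand): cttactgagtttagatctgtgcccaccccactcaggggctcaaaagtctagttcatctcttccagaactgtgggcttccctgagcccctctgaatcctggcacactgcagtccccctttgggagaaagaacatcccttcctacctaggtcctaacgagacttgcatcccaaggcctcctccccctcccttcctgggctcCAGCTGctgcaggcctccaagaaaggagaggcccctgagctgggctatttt
Myh8 (chr11:67276874-67277123, plus strand): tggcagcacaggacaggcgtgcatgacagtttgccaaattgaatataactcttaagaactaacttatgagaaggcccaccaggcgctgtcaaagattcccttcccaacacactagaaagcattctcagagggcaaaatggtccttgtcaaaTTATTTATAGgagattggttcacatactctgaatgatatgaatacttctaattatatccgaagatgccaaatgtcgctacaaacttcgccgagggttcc
The Acta1 window held a CAGCTG at 221 to 216 and a CArG box at 73 to 64 bases before the start. The Mylpf window held a CAGCTG at 51 to 46 bases before its start, and the Myh8 window a MEF2 site at 99 to 90. In GENCODE M21 the Mylpf gene spans 127208890 to 127214298, so its window lies inside the annotated gene, after the GENCODE start. The RefSeq table had windows for 28 of the 34 members, without Actn3, Myod1, Neb, Tcap, Tnni2 and Tnnt3. On either strand, CAGCTG was in 44.1% of the 34 windows of these 28 members, against 13.0% of all 32851 windows. A CArG box was in 11.8% (Acta1, Ldb3 and Myh4), against 1.47% of all windows. A MEF2 site was in 14.7% (Myh1, Myh4, Myh8, Pvalb and Ttn), against 2.92%. None of the matches in the printed windows overlapped another, and a match describes the letters only.

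Levels are in FPKM, a library's fragments on a transcript divided by its length and by the size of the library, so that genes can be compared per length. Depth was read from the steps of the low values. One fragment on a 2000 bp transcript was worth between 0.128 FPKM (FP 11) and 0.299 FPKM (RR 14), and the deepest library had 2.33 times the depth of the shallowest, if no scaling between libraries was applied. Of the libraries, RR 14 stood apart on the first principal component (76.9, against 9.1 to 19.5 in the other RR and -38.5 to -32.3 in the FP libraries). Col2a1, the main collagen of cartilage, was at 38700 to 81870 FPKM in all 6 libraries. In the test over all genes, limma on log2(FPKM + 1) at a Benjamini-Hochberg adjusted p under 0.05, 143 of 14789 genes differed between FP and RR.

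None of the 34 members passed the test between FP and RR. Those averaging at least 1 FPKM were tested, which left out Myh7, Tnni1, Tnnc1, Cacna1s, Myog and Myod1. Of the 28 tested members 0 passed, against 0.967% of all tested genes (0.554% higher and 0.412% lower in FP). An unadjusted p under 0.05 was found for 8 of 28, against 10.3% of all genes, and 7 of the 8 were higher in FP, against 5.77% of all genes. That count of 8 was 4 of 29 after rescaling and 5 of 28 after quantile normalization. It was 16 of 27 without RR 11 and 0 of 27 without both libraries numbered 16. By its estimate a member was higher in FP in 24 of 28, against 51.6% of all genes, with a median log2 change of 0.75 against 0.02. The number higher in FP was 22 of 29 after rescaling and 19 of 27 without both libraries numbered 16. The log2 change was above 1 in 10 of 28, against 3.81% of all genes. With RR 14 and RR 16 lowest in 17 of 28 members, these counts are not of independent observations. RR 11 lay within or above the FP range in 24 of 28. Muscle genes such as Myh1 and Acta1 were high in FP 11, FP 14, FP 16 and RR 11 and low in RR 14 and RR 16. Tnni2, a troponin gene, was high in all 6 libraries, the slow-fibre genes were low in all 6, and Mb went the opposite way. Of the 28 tested members, 22 reached that mean in both groups, 4 (Myh2, Myh3, Mybpc2 and Actn3) in FP only and 2 (Tcap and Mb) in RR only.

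**Figure D1:**
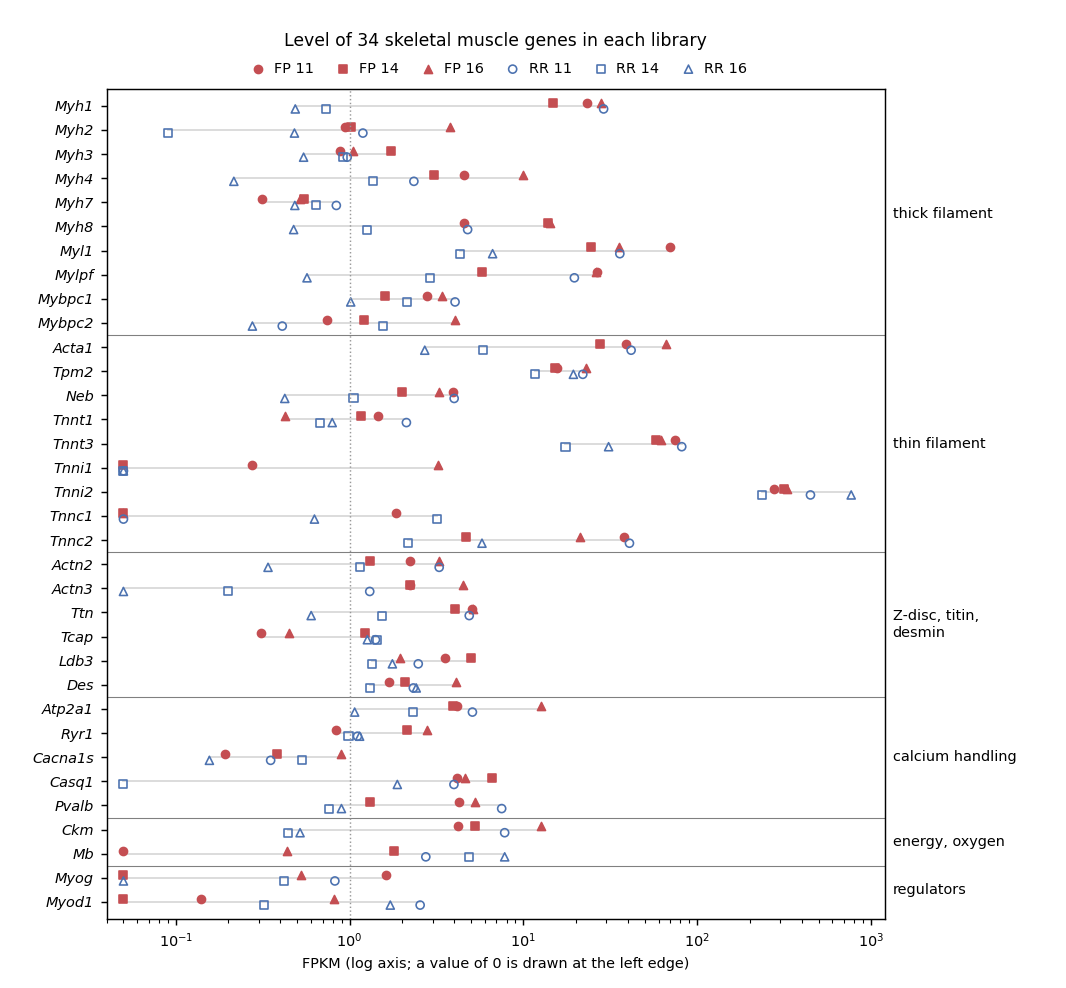
FPKM (log axis) of each of the 34 members, 1 row per gene ordered by role. Filled red symbols are the FP and open blue symbols the RR libraries, with a circle for number 11, a square for 14 and a triangle for 16, and the dotted line marks 1 FPKM. For Myh1, RR 11 lies with the FP libraries at 28.9 FPKM while RR 14 and RR 16 lie below 1 FPKM, and for Tnni2 all 6 values lie above 236 FPKM.

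Thick filament genes code for the myosin heavy chains, their light chains and the myosin-binding proteins C. Myh1, the heavy chain of fast IIX fibres, was at 23.2, 14.8 and 28 FPKM in FP 11, 14 and 16. In RR 11, 14 and 16 it was at 28.9, 0.734 and 0.487 FPKM. RR 11 thus had the highest of the 6 values and the other RR libraries the 2 lowest, and the groups overlapped. In estimated fragments, Myh1 had about 550.0, 177.0 and 454.3 in the FP libraries, against 449.7, 7.5 and 8.4 in the RR libraries. The FP mean was 22 ± 6.68 FPKM (SD, n = 3) and the RR mean 10.1 ± 16.4. The log2 change was 2.39 ± 1 (SE, 95% interval 0.10 to 4.68, limma adjusted p = 0.464). Without RR 11 it was 3.80 and passed (adjusted p = 0.00544), and across the other 5 fits without 1 library adjusted p lay between 0.6 and 0.812. Myh8, the neonatal heavy chain, was at 4.54, 13.9 and 14.3 FPKM in the FP libraries, against 4.78, 1.26 and 0.477 in the RR libraries, a log2 change of 2.01 ± 0.57 (limma adjusted p = 0.215). Without both libraries numbered 11 it was 3.05 and passed (adjusted p = 0.0314), and it did not pass without both numbered 14 (1.66, adjusted p = 0.821), without both numbered 16 (1.33, 0.715) or without RR 11 alone (2.57, 0.0836). Its RR 11 value lay just above FP 11, so these groups overlapped too. Myh4, the heavy chain of IIB fibres, was at 4.54, 3.06 and 9.94 FPKM in the FP libraries, against 2.34, 1.37 and 0.216 in the RR libraries, with all FP values above all RR values (log2 change 1.56 ± 0.49, limma adjusted p = 0.273). Among all tested genes, 8.74% had all FP values above all RR values, and of the tested members 3 of 28 did (Myh4, Actn3 and Casq1). Myh2, the heavy chain of IIA fibres, reached 3.76 FPKM in FP 16 and lay between 0.0907 and 1.19 in the other libraries. Myh3, the embryonic heavy chain, lay between 0.544 and 1.74 FPKM, and Myh7, the slow heavy chain, between 0.315 and 0.839.

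The make-up of the heavy chains differed between libraries. Their summed FPKM was 34.4, 35.0 and 57.6 in the FP libraries, against 39.1, 5.01 and 2.69 in the RR libraries. Myh1 took 67.4% of that sum in FP 11 and 74.1% in RR 11, 42.3% in FP 14 and 48.6% in FP 16. Myh8 took 13.2% and 12.2% in FP 11 and RR 11, but 39.6% in FP 14 and 24.9% in FP 16. In both libraries numbered 11 the adult fast chain thus outweighed the neonatal chain by more than in FP 14 or FP 16, which was not tested. In RR 14 and RR 16 no chain took more than 27.4%, on about 0.9 to 13.8 fragments a chain. The shares in all libraries are also uncertain because 5 of the heavy chain genes lie side by side on chromosome 11 (67078300 to 67308634, mm10) and resemble each other. Of all stretches of 31 bases in the longest coding transcript, another gene's transcripts also held 39.7% for Myh1 (most with Myh2), 38.5% for Myh2, 32.5% for Myh8, 30.4% for Myh4 and 11.2% for Myh3. Myh7 shared 31.9%, most with the cardiac chain Myh6, and the sources used here do not say how such reads were assigned.

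The light chains followed the same libraries. Myl1, the fast essential light chain, was at 69.4, 24.6 and 35.4 FPKM in the FP libraries, against 35.9, 4.34 and 6.65 in the RR libraries, a log2 change of 1.81 ± 0.69 (limma adjusted p = 0.403). RR 11 lay inside the FP range and the other RR libraries below it. Myl1 shared 28.4% of its stretches of 31 bases, most with the pseudogene Mylf-ps. Mylpf, the fast regulatory light chain, was at 26.7, 5.79 and 26.0 FPKM in the FP libraries, against 19.7, 2.89 and 0.569 in the RR libraries. FP 14 was here the lowest FP library, with about 8.7 fragments against 79.7 in FP 11. No stretch of 31 bases of Mylpf was found in another gene. Mybpc1, the slow myosin-binding protein C, lay between 1.02 and 4.05 FPKM with a log2 change of 0.15 ± 0.41, an estimate that turned to -0.03 when libraries were rescaled. Mybpc2, the fast form, was highest in FP 16 at 4.02 FPKM and lay between 0.276 and 1.56 in the other 5 libraries.

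Thin filament genes code for actin, the tropomyosin and troponins on it, and nebulin along it. Acta1, skeletal alpha-actin, was at 38.8, 27.6 and 66.3 FPKM in the FP libraries, against 41.7, 5.84 and 2.71 in the RR libraries. RR 11 lay above FP 11 and FP 14, and RR 14 and RR 16 were the lowest. The log2 change was 2.05 ± 0.80 (95% interval 0.23 to 3.86, limma adjusted p = 0.414), and without RR 11 it was 3.08 and passed (adjusted p = 0.0322). In the other 5 fits without 1 library it lay between 1.31 (without RR 16) and 2.33, with adjusted p between 0.538 and 0.751. Of Acta1, 4.45% of the stretches of 31 bases were shared, most with Actb. Neb, the giant nebulin, was at 3.92, 2.01 and 3.26 FPKM in the FP libraries, against 4, 1.05 and 0.424 in the RR libraries, which was about 343.9, 89.1 and 195.8 fragments, against 229.7, 39.7 and 27.2. Tpm2, beta-tropomyosin, which smooth muscle and fibroblasts also make, lay between 11.6 and 23.1 FPKM. Its log2 change was 0.05 ± 0.32 (95% interval -0.68 to 0.77), with -0.17 after rescaling and -0.12 after quantile normalization.

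The fast troponins did not share 1 pattern. Tnni2, the fast troponin I that blocks the contact of myosin with actin at rest, was at 277 to 330 FPKM in FP (277.5, 313.9 and 329.8). In RR 11, 14 and 16 it was at 448.4, 236.2 and 769.1 FPKM. RR 16, where Myh1 and Acta1 were at their lowest, had the highest Tnni2, about 1684.1 fragments. The log2 change was -0.50 ± 0.43 (95% interval -1.47 to 0.47, limma adjusted p = 0.779), with -0.09 without RR 16, -0.94 without RR 14, -0.95 without both libraries numbered 14 and -0.87 after quantile normalization. Tnni2 was 12.0 times the FPKM of Myh1 in FP 11 and 1579 times in RR 16. It shared no stretch of 31 bases with another gene and no exon position with one. Tnnt3, the fast troponin T that ties the complex to tropomyosin, was at 74.7, 58.1 and 61.9 FPKM in the FP libraries, against 81.5, 17.5 and 30.9 in the RR libraries. Its lowest libraries were also RR 14 and RR 16, but its level there was above that of every other member except Tnni2. Its log2 change was 0.84 ± 0.49 (limma adjusted p = 0.654). Tnnc2, the fast troponin C that binds calcium, was at 38.1, 4.67 and 21.2 FPKM in the FP libraries, against 40.8, 2.18 and 5.78 in the RR libraries, so that both libraries numbered 11 were high and FP 14 lay below RR 16.

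Tnni2 and Tnnt3 are neighbours on mouse chromosome 7. On mm10, Tnni2 lies at 142441808 to 142444410 and Tnnt3 at 142498836 to 142516009, both on the plus strand, 54425 bp apart. Syt8, Lsp1 and Prr33, genes near Tnni2 and Tnnt3, were looked at after its values were seen. Lsp1, which codes for a leukocyte protein that binds actin and lies between the troponins, was at 324, 659 and 503 FPKM in the FP libraries, against 269, 447 and 606 in the RR libraries. Lsp1 was thus also high in all 6 libraries (log2 change 0.19 ± 0.41, limma adjusted p = 0.941). Syt8, of a synaptotagmin, was at 44.3, 75.2 and 42.6 FPKM in the FP libraries, against 9.97, 12.2 and 29.4 in the RR libraries (adjusted p = 0.157). Prr33, a gene for a proline-rich protein, was at 47.2, 39.7 and 41.2 FPKM in the FP libraries, against 52.0, 41.0 and 65.0 in the RR libraries, highest in RR 16 and then RR 11, as was Tnni2 (log2 change -0.28 ± 0.27, adjusted p = 0.822).

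The slow troponins were low in all libraries. Tnnt1, the slow troponin T, lay between 0.423 and 2.12 FPKM, with a log2 change of -0.11 ± 0.45 that turned to 0.01 after quantile normalization. Tnni1, the slow troponin I, was listed at 0 in FP 14 and in all 3 RR libraries, at 0.276 FPKM in FP 11 and at 3.21 in FP 16. Tnnc1, troponin C of slow and cardiac fibres, was listed at 0 in FP 14, FP 16 and RR 11 and reached 3.19 FPKM in RR 14. Summed over the 5 slow-fibre genes (Myh7, Mybpc1, Tnnt1, Tnni1 and Tnnc1), the level was 6.67, 3.30 and 7.55 FPKM in the FP libraries, against 7.01, 6.66 and 2.92 in the RR libraries. The 12 fast-fibre genes summed to 526, 435 and 542 FPKM in the FP libraries, against 673, 270 and 816 in the RR libraries, most of it Tnni2.

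Z-disc and scaffold genes anchor and align the filaments. Ttn, titin, which spans from the Z-disc to the middle of the sarcomere, had the longest transcript of the members (106824 bp) and thus many fragments at a low FPKM. It was at 5.05, 4.03 and 5.14 FPKM in the FP libraries, against 4.88, 1.53 and 0.601 in the RR libraries, about 2103.9, 847.1 and 1465.5 fragments against 1332.2, 273.2 and 183.1. RR 11 lay inside the FP range, and RR 14 and RR 16 below it. The log2 change of Ttn was 0.99 ± 0.46 (95% interval -0.05 to 2.03, limma adjusted p = 0.520). Actn3, the alpha-actinin of fast fibres, was at 2.23, 2.22 and 4.49 FPKM in the FP libraries, against 1.31, 0.199 and 0 in the RR libraries, without overlap (log2 change 1.46 ± 0.45, adjusted p = 0.271). Actn2, the other sarcomeric alpha-actinin, lay between 0.340 and 3.28 FPKM, highest in RR 11 and FP 16 and lowest in RR 16. Ldb3, which codes for a Z-disc protein that binds alpha-actinin, lay between 1.35 and 4.99 FPKM with its lowest values in RR 14 and RR 16. Des, desmin, the intermediate filament that smooth muscle also makes, lay between 1.31 and 4.10 FPKM. Tcap, titin-cap, was at 0.309, 1.23 and 0.449 FPKM in the FP libraries, against 1.41, 1.43 and 1.27 in the RR libraries. RR was thus above FP, but on 1.1 to 3.4 fragments a library. All RR values lay above all FP values in 2 of 28 tested members (Tcap and Mb), against 7.28% of all tested genes.

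Calcium handling genes release, store and pump the ion that starts contraction. Atp2a1, the fast-fibre calcium pump SERCA1, was at 4.13, 3.96 and 12.6 FPKM in the FP libraries, against 5.09, 2.31 and 1.07 in the RR libraries (log2 change 1.02 ± 0.51, limma adjusted p = 0.564). Casq1, calsequestrin, which holds calcium in the reticulum, was at 4.14, 6.57 and 4.61 FPKM in the FP libraries, against 3.98, 0 and 1.88 in the RR libraries (log2 change 1.31 ± 0.54, adjusted p = 0.455). Its groups did not overlap, but FP 11 lay only just above RR 11. Pvalb, parvalbumin, the calcium buffer of fast fibres, was at 4.27, 1.31 and 5.26 FPKM in the FP libraries, against 7.50, 0.761 and 0.898 in the RR libraries, highest in RR 11. Ryr1, the calcium release channel, lay between 0.837 and 2.79 FPKM. Cacna1s, the voltage sensor that opens Ryr1, lay between 0.156 and 0.896 FPKM and was not tested.

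Of the remaining members, Ckm followed the filament genes and Mb did not. Ckm, the muscle creatine kinase that restores ATP, was at 4.18, 5.29 and 12.7 FPKM in the FP libraries, against 7.80, 0.440 and 0.519 in the RR libraries (log2 change 1.51 ± 0.70, limma adjusted p = 0.523). Mb, myoglobin, the oxygen store of muscle, was listed at 0 in FP 11 and was at 1.79 and 0.437 FPKM in FP 14 and 16. In RR 11, 14 and 16 it was at 2.75, 4.87 and 7.81 FPKM, all above FP and highest in RR 16. Its log2 change of -1.86 ± 0.48 had the lowest adjusted p of the 28 (0.169), on about 7.7 to 24.6 fragments in RR. Exons of Mb overlap exons of Apol6 on the opposite strand, and whether strand was used in counting is unknown. Apol6 was at 0.482 FPKM in RR 16, its lowest value, and at 1.23 to 2.62 FPKM in the other 5 libraries. Of the 34 members, 14 have exons opposite exons of another gene, among them Tnnc2 opposite Ube2c and Atp2a1 opposite Rabep2. Ube2c, of a ubiquitin enzyme of mitosis, was at 21.2, 9.42 and 16.1 FPKM in the FP libraries, against 4.81, 2.19 and 3.45 in the RR libraries, and its part in the Tnnc2 values was not tested. Myog, myogenin, and Myod1, the transcription factors that drive muscle differentiation, were near the limit of detection. Myog was at most 1.62 FPKM (FP 11, about 9.5 fragments) and was listed at 0 in FP 14 and RR 16. Myod1 reached 2.55 FPKM in RR 11 and 1.72 in RR 16, was listed at 0 in FP 14 and lay between 0.140 and 0.811 in the other 3 libraries.

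**Figure D2:**
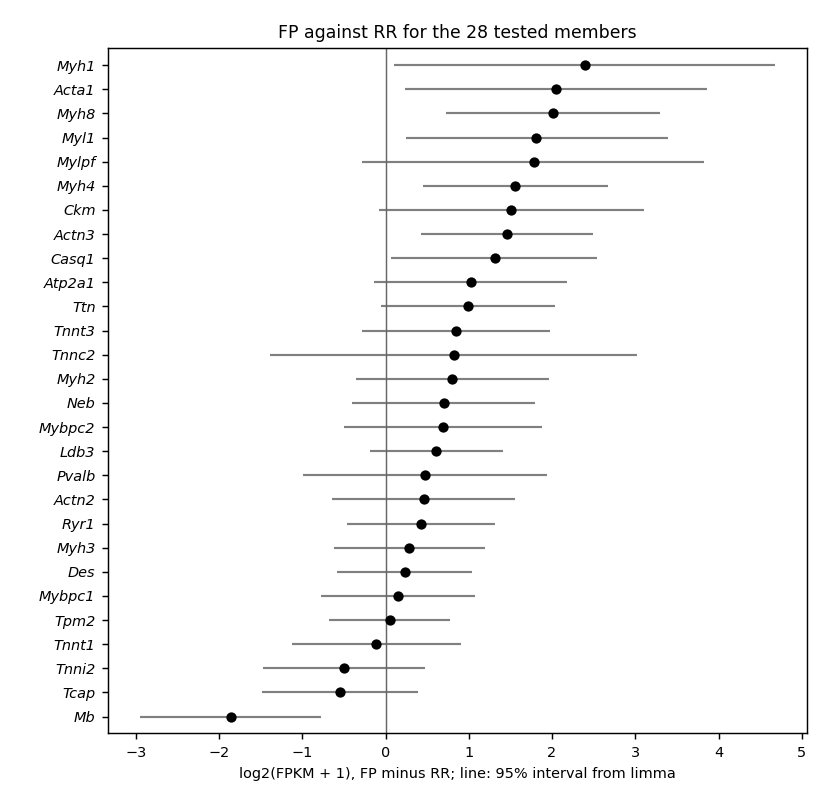
Log2 change, FP minus RR on the log2(FPKM + 1) scale, of the 28 tested members, with the 95% interval from limma as a line. The interval lies above 0 for 7 members and below 0 for Mb, and it crosses 0 for 20, while 0 members passed after adjustment.

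The RR libraries did not lie together. RR 14 and RR 16 both lay below all 4 other libraries in 17 of the 28 tested members, and 7.46% of all tested genes had that order. After rescaling to the genes that hold at most 0.5% of a library's sum, 16 of the 28 had it, against 6.14% of all. This order was picked out after the values were seen and is a description of these libraries. RR 11 lay inside the FP range for 13 members and above all FP values for 11. Without RR 11, 2 of 27 tested members passed (Myh1 and Acta1), against 78 of all 14703 genes tested in that fit. The median log2 change of the members was then 1.22, against 0.02 for all genes. Without RR 14, the library apart on the first principal component, 0 of 28 passed and the median was 0.52, and without RR 16 these were 0 of 28 and 0.57. Of the 17, 6 were thick filament, 3 thin filament, 4 Z-disc and scaffold, 3 calcium handling genes and 1, Ckm, an energy gene. Among them, Myh2 and Actn3 averaged at least 1 FPKM in FP only, so they entered the test through the group where they were high. In a bulk capture, fewer cells that make these RNAs and less of the RNA per cell cannot be told apart, and which cells made them was not tested.

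Summed over all 34 members, the level did not separate the groups, at 621, 528 and 696 FPKM in the FP libraries, against 787, 312 and 863 in the RR libraries. Tnni2 was the largest single part of it, and without Tnni2 and Tnnt3 the other 32 members summed to 269, 156 and 304 FPKM in the FP libraries, against 257, 58.1 and 62.5 in the RR libraries. The ratio of the FP to the RR mean was 0.94 with all members and 1.93 without these troponins, a choice made after seeing the data. Without RR 11 the latter was 4.03, and in the other 5 fits without 1 library it lay between 1.52 and 2.27. RR 11 lay inside the FP range of that sum, and RR 14 and RR 16 below it.

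**Figure D3:**
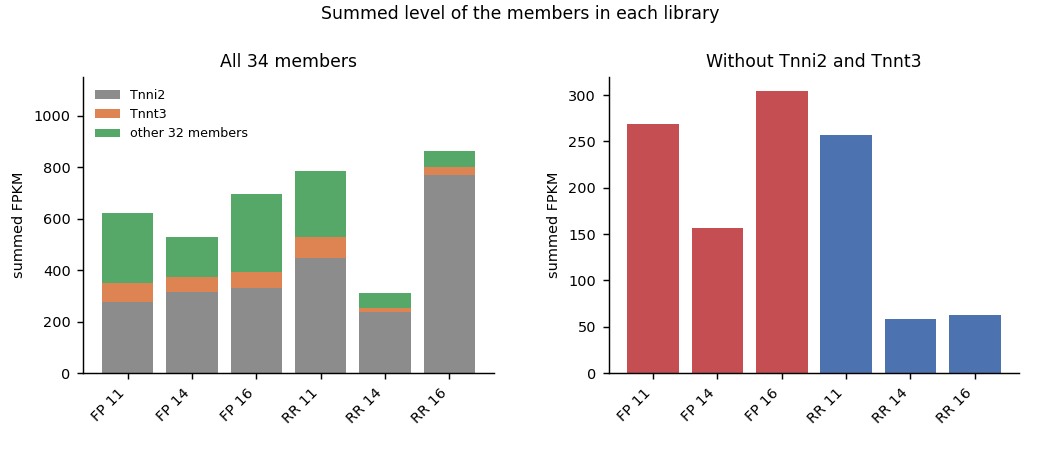
Summed FPKM of the members in each library, on the left split into Tnni2, Tnnt3 and the other 32, on the right for the other 32 alone (red FP, blue RR). Without the 2 troponins the sum lies between 156 and 304 FPKM in the FP libraries and RR 11 and at 58.1 and 62.5 in RR 14 and RR 16.

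Other skeletal muscle genes were read from a separate list. Of 48 such genes listed, 47 were found and 25 were tested, 0 passed in either direction in limma and 0 had an unadjusted p under 0.05. Their median log2 change was 0.06 and 14 of 25 lay above 0, against -0.10 and 7 of 25 after rescaling, and in 2 of 25 (Myom1, of the M-band, and Srl, of the sarcoplasmic reticulum) RR 14 and RR 16 were the lowest libraries. The 6 with the highest mean were Cox8b, Myoz3, Eno3, Chrna1, Jph1 and Pgam2. Myoz3, of a Z-disc protein, lay between 17.0 and 34.1 FPKM, and Eno3, the muscle enolase, between 2.71 and 11.8. Chrna1, of the acetylcholine receptor, lay between 4.09 and 8.77 FPKM, Jph1, which ties the reticulum to the surface membrane, between 3.43 and 6.37, and Pgam2, a glycolytic enzyme, between 2.60 and 6.19. Cox8b, a respiratory chain subunit of muscle and brown fat, was at 117 FPKM in RR 16 and at 0 to 14.5 in the other 5 libraries. Ucp1, the heat-producing carrier of brown fat, was looked up for that reason and was at 131 FPKM in RR 16 against 0.243 to 8.36 elsewhere. Many of the 47 were near the limit of detection, and Myl2, the slow and cardiac regulatory light chain, was listed at 0 in all 6 libraries.

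Markers of other tissues were read in the same captures, and with the exceptions of Sp7, Comp and Col10a1 none of them passed. The 6 pituitary hormone genes summed to 13.8 and 18.1 FPKM in FP 11 and RR 11, to 1450 and 1210 in FP 14 and RR 14, and to 380 and 397 in FP 16 and RR 16. Pituitary RNA thus went with the library number, and Gh and Pomc were the highest of the 6. The muscle sums did not follow the number in the RR libraries 14 and 16. The 5 fat genes, led by Fabp4 and Plin1, summed to 411 FPKM in RR 16 and to 4.16 to 35.5 elsewhere. The 7 bone genes summed to 191, 246 and 137 FPKM in the FP libraries, against 102, 18.6 and 15.9 in the RR libraries. Like the muscle sum without Tnni2 and Tnnt3, the bone sum was lowest in RR 14 and RR 16. Unlike it, the bone sum of RR 11 also lay below all FP libraries, through Ibsp and Sp7. Ibsp was at 137.8, 191.2 and 90.79 FPKM in the FP libraries, against 41.6, 10.65 and 7.18 in the RR libraries. The rest of the list (Bglap, Dmp1, Phex, Mepe and Sost) went the other way, each highest in RR 11. Bglap was at 32.5 FPKM in RR 11 and at 2.77 to 7.44 in the FP libraries. Of the bone genes Sp7 passed, at a log2 change of 2.81 ± 0.28 (limma adjusted p = 0.00418), with RR 11 at 5.56 FPKM against 29.3 to 40.7 in FP. Ibsp, the highest of the bone list, did not pass (3.08 ± 0.58, adjusted p = 0.0571, and 0.00702 to 0.215 in the fits without 1 library). The part of pituitary, fat or bone tissue in the muscle result was not tested. The 9 tendon and fibrous tissue genes, led by Fmod and Col1a1, summed to 1420, 1120 and 594 FPKM in the FP libraries, against 2460, 959 and 1140 in the RR libraries. Scx, the transcription factor of tendon cells, was at 1.73, 3.43 and 3.23 FPKM in the FP libraries, against 4.13, 6.85 and 11.1 in the RR libraries (log2 change -1.09 ± 0.37, limma adjusted p = 0.333). Fmod, fibromodulin, also had all RR values above all FP values (log2 change -0.94 ± 0.33, adjusted p = 0.340), and Tnmd, tenomodulin, was at 0 to 1.87 FPKM. Mkx, of the same list, went the other way, with all FP values above all RR values. It was at 1.54, 3.05 and 1.9 FPKM in the FP libraries, against 0.585, 1.42 and 0.525 in the RR libraries (log2 change 0.78 ± 0.39, limma adjusted p = 0.558). Of the 8 tested genes of this list, 5 had a log2 change above 0, and the median was 0.24. The 8 smooth muscle genes, led by Smtn and Acta2, summed to 61.1 to 179 FPKM. Most of it was Smtn, at 50.55 to 151.3 FPKM, and its lowest value made the sum lowest in RR 11. Acta2 lay between 1.35 and 6.93 FPKM, lowest in RR 14. The 8 cardiac genes, led by Myl4 and Tnni3, summed to 7.30 to 12.7 FPKM, with Tnnt2, the cardiac troponin T, at 0 in 5 libraries. Red blood cell genes (Hba-a1 and Alas2) summed to 51.1 to 115 FPKM and macrophage and osteoclast genes (Ctsk and Acp5) to 13.5 to 105. Endothelial genes (Cdh5 and Pecam1) summed to 6.12 to 16.2 FPKM and epithelial genes (Krt8 and Epcam) to 1.65 to 32. The 13 chondrocyte genes found of 14, led by Col2a1 and Col11a2, summed to 46700 to 104000 FPKM, and of them Comp (log2 change 3.58 ± 0.33) and Col10a1 (5.66 ± 0.47) passed.

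**Figure D4:**
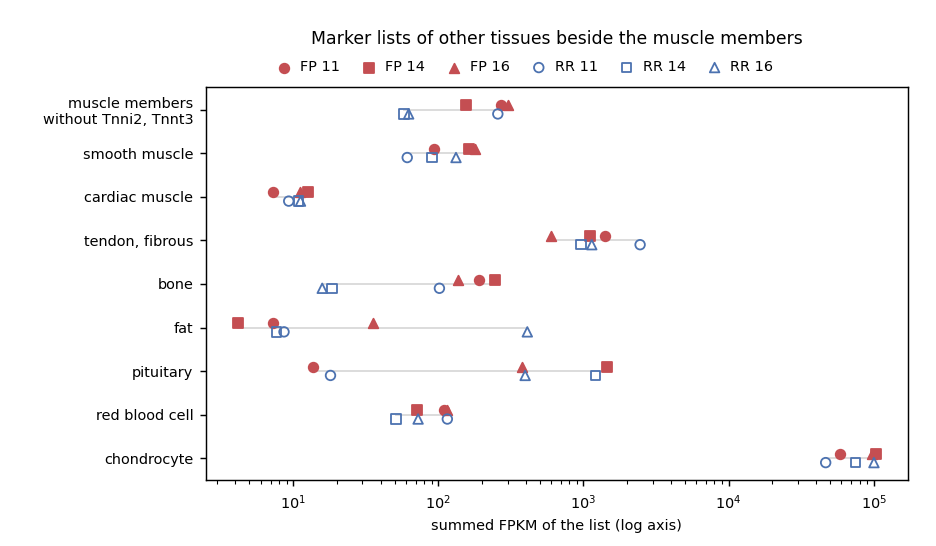
Summed FPKM (log axis) of marker lists in each library, with the 32 muscle members other than Tnni2 and Tnnt3 in the top row and the same symbols for libraries (red FP, blue RR). Pituitary genes pair the libraries by number (13.8 and 18.1, 1450 and 1210, 380 and 397 FPKM), fat genes stand out in RR 16 at 411 FPKM, and the muscle sum is lowest in RR 14 and RR 16.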

How the data were processed

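RNA was measured in 3 FP and 3 RR libraries of laser-captured cartilage, taken up in QIAzol and prepared with a stranded total RNA kit for picogram inputs, per the labels. Titles give the groups and numbers. No label ties a library to an animal of its own. The p-values therefore measure only how far these samples spread, and that spread may be technical. The values deposited by the authors are FPKM, 1 column per library, per the file headers. The submitters' processing notes name TopHat2 2.1.1, Bowtie2 2.2.8, SAMtools 0.1.18, Cuffdiff 2.2.1 and build mm10. Sources used here do not state the annotation, whether libraries were scaled to each other or whether strand was used.

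Members and lists were chosen with earlier results of these data known. The test was limma 3.58.1 (R 4.3.3) with an intensity trend, two-sided, of FP minus RR on log2(FPKM + 1). It covered the 14789 genes averaging 1 FPKM or more, and p-values were Benjamini-Hochberg adjusted over all of them. The log2 scale understates changes of low genes. A 0 can be a failed estimate. Depth was estimated from FPKM times length of 3524 genes with 1 transcript of 1500 to 3000 bp: 69.8% to 73.3% of low values were whole fragments within 0.1, against 20% for evenly spread values. The total number of fragments is unknown, and fragments of a member use its longest coding transcript. Coordinates and transcripts are those of GENCODE M21 on mm10, where 23310 of 24346 symbols were found. All members are named, with genes of other lists that passed and those with the highest means (6 of the other skeletal muscle list, 2 of each other list). Named outside this rule are Scx, Tnmd, Mkx, Tnnt2, Myh6, Matn3, Myom1, Srl and Myl2. The result of 1 further marker list is not reported here. Alternatives were other pseudocounts, filters, scalings, variance models, the library number as a block and fits without 1 or 2 libraries.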

Additional observations from a re-analysis of the deposited data

How the results depend on the processing

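With 3 libraries a group, the SE of a member's log2 change reached 1 (Myh1) and was 0.32 for Tpm2, and members at low FPKM with short transcripts rest on a few fragments. Of 473 recomputed values of the tested members under 18 settings, 452 kept direction and side of the threshold, 5 came to pass and 16 changed sign, all in 6 members with small changes. The members called were 0 in all fits except 1 (Myl1, limma adjusted p = 0.0483, log2 change 1.81) with the library number as a block, 2 without RR 11 (Myh1 and Acta1; the 6 fits without 1 library gave 0 to 2) and 2 without both libraries numbered 11 (Myh1 and Myh8, adjusted p = 0.0204 and 0.0314). The cause was not tested. Over all genes 143 were called, 83 without an intensity trend, 271 with the replicate block (among them the markers Ibsp and Matn3, adjusted p = 0.028 and 0.029, against 0.0571 and 0.206), 42 (without FP 16) to 85 (without FP 11) in the fits without 1 library, 42, 8 and 20 without both libraries numbered 11, 14 and 16, and 0 other skeletal muscle genes in all fits. Same-numbered libraries deviated together at correlations of 0.319, 0.185 and 0.089 across genes for 11, 14 and 16, and each library correlated best with its own number, which is a hint from the data and not from the design. Rescaling moved the median change of all genes from 0.02 to -0.17 and that of the members from 0.75 to 0.55, with a split of 68 higher and 87 lower genes against 82 and 61, and 66 and 65 after quantile normalization. It turned Mybpc1 to -0.03 and Tpm2 to -0.17. Quantile normalization turned Tnnt1 to 0.01 and Tpm2 to -0.12. Without 1 library, Tpm2 ranged from -0.21 to 0.22, Mybpc1 from -0.18 to 0.48, Tnnt1 from -0.27 to 0.13 and Des from -0.05 to 0.42. Tpm2 was at -0.11 without both libraries numbered 14. Without both numbered 16, Actn2 was at -0.15, Mybpc1 at -0.35, Pvalb at -0.15, Tnnt1 at 0.01 and Tpm2 at -0.05. The ratio of the summed level, 0.94 in FP over RR, was 0.82 after rescaling, 0.937 without Tpm2, Des and Tnnt1, 0.745 to 1.12 without 1 library, 1.82 without Tnni2 and 1.93 without Tnni2 and Tnnt3, the last chosen after seeing the data.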
